A study of Mus musculus with 8 samples.

Results

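The epithelial to mesenchymal transition and its cadherin switch were followed through 10 genes, *Cdh1*, *Cdh2*, *Epcam*, *Vim*, *Snai1*, *Snai2*, *Zeb1*, *Zeb2*, *Twist1* and *Twist2*. They were chosen by gene symbol from the 36808 genes of the expression table, and each symbol matched 1 row. The study asked how Polycomb Repressive Complex 2 (PRC2), which trimethylates histone H3 at lysine 27 (H3K27me3), shapes gene expression when mouse embryonic stem cells (ESCs) are directed toward spinal motor neurons (SMNs). RNA-seq values were used for 8 libraries, each the only library of its condition. ESC libraries came from E14 wild type (129/Ola background), from CJ7, a second wild-type line (129/S), from Suz12delta cells (C57/BL6), in which the PRC2 subunit SUZ12 is truncated, and from Eednull cells (BALB/cR1), which carry a point mutation in the subunit gene *Eed*. Libraries of day 5 of SMN differentiation came from E14, Suz12GT, Suz12delta and Eednull cells. Suz12GT (129/Ola) is a gene trap line that makes a SUZ12 fusion protein and keeps part of its H3K27me3, while the study describes Suz12delta and Eednull cells as nearly without the mark. Suz12GT ESCs were not analysed here. Differentiation used withdrawal of leukemia inhibitory factor (LIF), retinoic acid and an agonist of Sonic Hedgehog signalling. All ESCs had been grown with LIF on irradiated mouse embryonic fibroblasts, from which they were separated by brief plating.

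Epithelial cells hold together through E-cadherin, the product of *Cdh1*, whose cytoplasmic tail binds catenins and through them the actin cytoskeleton. When epithelium turns into neural tube or mesenchyme, E-cadherin is commonly replaced by N-cadherin, the product of *Cdh2*. Transcription factors of the Snail (*Snai1*, *Snai2*), ZEB (*Zeb1*, *Zeb2*) and Twist (*Twist1*, *Twist2*) families can drive this switch, and the Snail and ZEB proteins repress *Cdh1* through E-box motifs. ESCs are themselves epithelial in character and express *Cdh1*, and the neural progenitors made from them express *Cdh2* and *Vim*.

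The motif that Snail and ZEB proteins recognise was looked for in the reference sequence around the start of each gene, because repression of epithelial genes through it is the best known link between the transcription factors and the adhesion genes described here. RefSeq promoters (build GRCm38.p6, 250 bases before to 50 after the start) were matched for 6 of the 10 genes, namely *Epcam*, *Snai1*, *Twist1*, *Twist2*, *Vim* and *Zeb2*, and those of *Cdh1*, *Cdh2*, *Snai2* and *Zeb1* were not used. The motif CACCTG, or CAGGTG as it reads on the other strand, was present in 2 of the 9 promoters of these genes (*Zeb2* has 4), those of *Epcam* and *Snai1*, and in 20.2% of all 32851 promoters of the same length, which is a like share. The *Epcam* promoter (chr17:87635729-87636028, + strand) held 2 matches, which begin at -187 and -19 relative to the start, and the *Snai1* promoter (chr2:167537945-167538244, + strand) held 1, which begins at -126. Both are shown 5′ to 3′, as the epithelial gene and the repressor gene of this set that carry the motif, with the matches in capitals.
Epcam: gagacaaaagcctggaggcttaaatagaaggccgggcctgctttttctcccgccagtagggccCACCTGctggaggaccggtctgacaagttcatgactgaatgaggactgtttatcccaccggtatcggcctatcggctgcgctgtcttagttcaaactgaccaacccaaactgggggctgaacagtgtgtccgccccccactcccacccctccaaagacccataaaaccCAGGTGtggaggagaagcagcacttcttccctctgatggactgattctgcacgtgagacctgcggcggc
Snai1: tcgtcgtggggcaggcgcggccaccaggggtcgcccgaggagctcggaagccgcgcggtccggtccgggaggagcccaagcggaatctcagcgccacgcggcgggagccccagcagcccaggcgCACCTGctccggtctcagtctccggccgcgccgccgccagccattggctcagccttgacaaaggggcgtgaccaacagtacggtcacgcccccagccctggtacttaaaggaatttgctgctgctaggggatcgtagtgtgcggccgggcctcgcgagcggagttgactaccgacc
The looser E-box CANNTG, of which CACCTG and CAGGTG are cases, was found in 72.3% of all promoters and in 2 of these 9, at 3 places in *Epcam* and 1 in *Snai1*. A match is a run of letters and not a measured binding site.

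The values are FPKM, in which fragments are divided by transcript length and by the total mapped in the library, so levels can be set side by side between genes of a library. Between libraries they are less directly comparable, since the values summed to between 389165 and 797748 FPKM per library and the 10 most abundant genes held 7.69% to 35.2% of that sum. Ratios are log2 of FPKM plus 0.1, for genes that reach 0.1 FPKM in either library of a pair, and a gene is called higher or lower here when it differs at least 2-fold on that scale. With 1 library per condition there is no spread between replicates and no test, and no order of levels given here has a replicate check. How many reads stand behind a value is not known. The only gauge of variation between lines of the same genotype is the pair of wild-type ESC lines. In CJ7 relative to E14 ESCs, 0 of the 10 genes were higher and 1 was lower, where 15.7% and 14.7% of all genes were (30.4% in either direction). The 10 log2 ratios ran from -1.26 for *Snai1* to 0.60 for *Cdh2*. When every library was brought to an equal 75th percentile of FPKM, the median log2 ratio of all genes went from -0.28 to 0.07 in Suz12delta ESCs relative to E14 ESCs and from 0.43 to 0.06 in Suz12delta cells over differentiation. The other medians over all genes shifted less. Where a member crossed the 2-fold limit with this scaling, its scaled ratio is given beside the result. Ratios of members to CJ7 were not scaled.

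In wild-type cells the cadherin switch was large. *Cdh1* (ENSMUSG00000000303, chromosome 8, 109127251 to 109194146, NCBI build 37) had 46.8 FPKM in E14 ESCs and 0.608 FPKM at day 5, which is 76.9-fold lower, with a log2 ratio of -6.05. *Cdh2* (ENSMUSG00000024304, chromosome 18, 16747386 to 16967755) was at 4.27 FPKM in E14 ESCs and 40.9 FPKM at day 5, a log2 ratio of 3.23. *Cdh1* stood above 95.2% of all genes in ESCs and above 59.1% at day 5, while *Cdh2* moved from above 70.9% to above 95.0% of genes. *Epcam* (ENSMUSG00000045394, chromosome 17, 88035319 to 88050446), which encodes an epithelial adhesion molecule abundant on ESCs, went with *Cdh1*, from 24.1 to 0.436 FPKM, a log2 ratio of -5.50. *Vim* (ENSMUSG00000026728, chromosome 2, 13495554 to 13504453) encodes the intermediate filament vimentin of mesenchymal and neural progenitor cells. It was at 217 FPKM in E14 ESCs and 399 FPKM at day 5, a log2 ratio of 0.88, under the 2-fold limit, and of 1.02 after scaling to the 75th percentile.

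In the lines nearly without H3K27me3, *Cdh1* stayed at its ESC level. In Suz12delta cells it was at 27.7 FPKM in ESCs and 34.6 FPKM at day 5, and in Eednull cells at 40.0 and 35.7 FPKM, with log2 ratios of 0.32 (-0.06 scaled) and -0.17. In Suz12GT day 5 cells it was at 3.96 FPKM, between the wild-type value and those of the other mutant lines. Relative to E14 at day 5, the log2 ratio of *Cdh1* was 2.52 in Suz12GT, 5.62 in Suz12delta and 5.66 in Eednull cells. The day 5 values of Suz12delta and Eednull cells thus lay far above those of E14 and Suz12GT cells. CJ7 ESCs had the highest *Cdh1* value of the 8 libraries, 51.1 FPKM.

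*Cdh2* did not divide the libraries in the same way. In Suz12GT day 5 cells it was at 39.7 FPKM, beside 40.9 FPKM in E14, a log2 ratio of -0.04. In Suz12delta cells it was already at 16.6 FPKM in ESCs and was at 15.0 FPKM at day 5. In Eednull cells it was at 7.55 FPKM in ESCs and 14.6 FPKM at day 5, a log2 ratio of 0.95. CJ7 ESCs were at 6.52 FPKM. The day 5 values of Suz12delta and Eednull cells were lower than that of E14, with log2 ratios of -1.45 and -1.48, but above those of both wild-type ESC lines.

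Within a library, where scaling between libraries plays no part, *Cdh2* was above *Cdh1* only in E14 and Suz12GT day 5 cells. The ratio of *Cdh1* to *Cdh2* was 10.9 in E14, 7.83 in CJ7, 5.30 in Eednull and 1.67 in Suz12delta ESCs. At day 5 it was 2.31 in Suz12delta and 2.44 in Eednull cells, so *Cdh1* remained the higher of the 2 genes in these libraries. In E14 and Suz12GT day 5 cells *Cdh2* was instead 67.4-fold and 10.03-fold higher than *Cdh1*. The log2 ratio of *Cdh1* minus that of *Cdh2*, the shift of the balance between day 0 and day 5, was -9.28 in E14 cells, 0.47 in Suz12delta cells and -1.11 in Eednull cells. With a pseudocount of 1 FPKM the shift in E14 cells was -7.88.

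**Figure D1:**
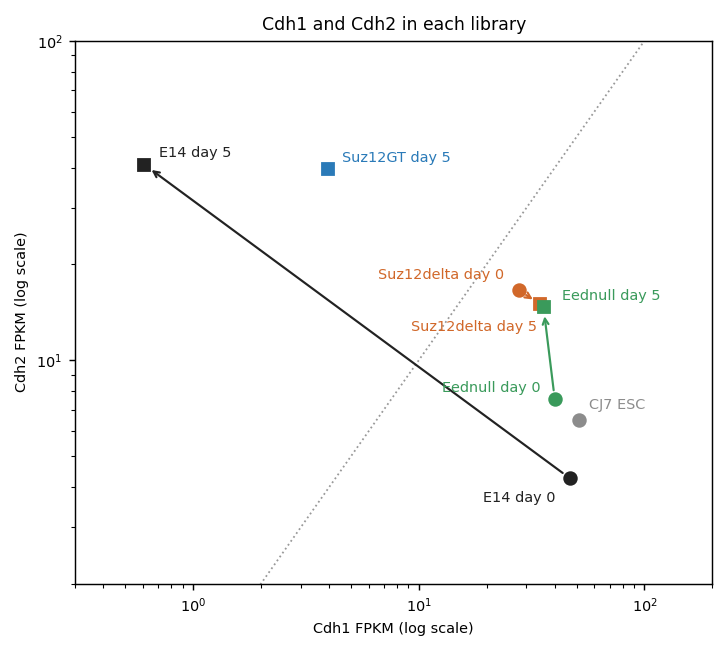
*Cdh1* (x axis) and *Cdh2* (y axis) in FPKM on log scales, with 1 point per library, circles for ESCs, squares for day 5 and arrows from day 0 to day 5 of a line; the dotted line marks equal values. E14 cells moved from 46.8 and 4.27 FPKM to 0.608 and 40.9 FPKM, Suz12GT day 5 cells lie at 3.96 and 39.7 FPKM, and the Suz12delta and Eednull day 5 libraries lie close together below the line.

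*Epcam* separated the mutant lines in part from *Cdh1*. At day 5 it was at 2.44 FPKM in Suz12GT, 14.9 FPKM in Suz12delta and 11.7 FPKM in Eednull cells, and all 3 were higher than E14 at 0.436 FPKM, with log2 ratios of 2.25, 4.81 and 4.46. In ESCs it was at 20.3 FPKM in CJ7, 6.24 FPKM in Suz12delta and 35.0 FPKM in Eednull cells. From day 0 to day 5 *Epcam* was therefore higher in Suz12delta cells (log2 ratio 1.25, but 0.87 and under the 2-fold limit after scaling) and lower in Eednull cells (-1.58), although the day 5 values of these lines lay near each other. The Suz12delta ESC library held the lowest ESC value of *Epcam* and, at 27.7 FPKM, also of *Cdh1*.

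The transcription factors fell into 2 groups in wild-type cells. The ZEB genes were higher at day 5, together with *Cdh2*. *Zeb1* (ENSMUSG00000024238, chromosome 18, 5591858 to 5775465) was at 4.39 FPKM in E14 ESCs and 19.6 FPKM at day 5, a log2 ratio of 2.13. *Zeb2* (ENSMUSG00000026872, chromosome 2, 44839154 to 44972915) was at 3.96 and 16.4 FPKM, a log2 ratio of 2.02. The Snail and Twist genes were all lower at day 5, together with *Cdh1*. *Snai1* (ENSMUSG00000042821, chromosome 2, 167363695 to 167368314) was at 2.43 FPKM in E14 ESCs and 0.118 FPKM at day 5, and *Snai2* (ENSMUSG00000022676, chromosome 16, 14705945 to 14709488) at 1.09 and 0.0736 FPKM. *Twist1* (ENSMUSG00000035799, chromosome 12, 34642536 to 34644682) was at 1.66 and 0.253 FPKM, and *Twist2* (ENSMUSG00000007805, chromosome 1, 93698038 to 93744605) at 0.851 and 0.132 FPKM. The 4 log2 ratios were -3.54, -2.78, -2.31 and -2.03 in this order. Summed, the ZEB genes went from 8.36 to 36.0 FPKM and the Snail and Twist genes from 6.03 to 0.577 FPKM. The loss of *Cdh1* in wild-type cells thus went with higher ZEB and lower Snail and Twist values. With a pseudocount of 1 FPKM, *Snai2* (-0.96) and *Twist2* (-0.71) were no longer past the 2-fold limit. All 12 markers of fibroblasts examined, the cells on which ESCs were grown, were also lower in E14 at day 5 than at day 0 (median log2 ratio -3.92), and they summed to 109 FPKM before and 7.01 FPKM after. Their part in the Snail and Twist values was not tested. Over the 10 genes, 3 were higher and 6 lower in E14 at day 5, where 18.3% of all genes were higher and 25.8% lower (44.1% in all).

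In the mutant lines at day 5 the Snail and Twist genes were higher than in E14, in the presence of *Cdh1*. *Snai1* was at 1.34 FPKM in Suz12GT, 4.44 FPKM in Suz12delta and 4.57 FPKM in Eednull cells. *Snai2* was at 0.279, 4.29 and 4.53 FPKM in these libraries. *Twist1* was at 3.18 FPKM in Suz12GT, 4.05 FPKM in Suz12delta and 3.29 FPKM in Eednull cells, and *Twist2* at 0.7505, 3.18 and 3.23 FPKM. Each of these 12 values lay above its E14 day 5 value, by log2 ratios from 1.13 (*Snai2* in Suz12GT) to 4.74 (*Snai2* in Eednull). *Twist1* differed from the others in that its Suz12GT value was close to those of Suz12delta and Eednull cells, while *Snai1*, *Snai2* and *Twist2* were lower in Suz12GT than in both. The ZEB genes showed the reverse. *Zeb1* was at 24.5 FPKM in Suz12GT, 7.07 FPKM in Suz12delta and 7.07 FPKM in Eednull cells, and *Zeb2* at 13.7, 2.61 and 4.6 FPKM. Relative to E14 at day 5, *Zeb1* had log2 ratios of 0.32, -1.46 and -1.46 and *Zeb2* of -0.26, -2.60 and -1.81 in Suz12GT, Suz12delta and Eednull cells.

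*Vim* at day 5 was at 372 FPKM in Suz12GT cells, near the 399 FPKM of E14, and at 194 FPKM in Suz12delta and 204 FPKM in Eednull cells, with log2 ratios to E14 of -0.10, -1.04 and -0.97. In every library *Vim* stood above at least 99.0% of genes, and *Vim* was the most abundant of the 10 genes in each of the 8 libraries. Over all 10 genes, 6 were higher and 0 lower in Suz12GT than in E14 day 5 cells, where 16.8% and 4.4% of all genes were (21.2% in all). In Suz12delta cells 6 were higher and 4 lower, against 26.6% and 9.52% of all genes (36.1% in all). In Eednull cells 6 were higher and 3 lower, against 21.6% and 11.3% (33% in all). The 6 higher genes were *Cdh1*, *Epcam* and the Snail and Twist genes in each of the 3 comparisons, which share the E14 day 5 library. In Suz12GT cells a pseudocount of 1 FPKM left 4 of the 6, as *Snai2* (0.25) and *Twist2* (0.63) were then under the 2-fold limit. The genes not higher, *Cdh2*, *Vim*, *Zeb1* and *Zeb2*, had log2 ratios between -0.26 and 0.32 in Suz12GT cells.

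**Figure D2:**
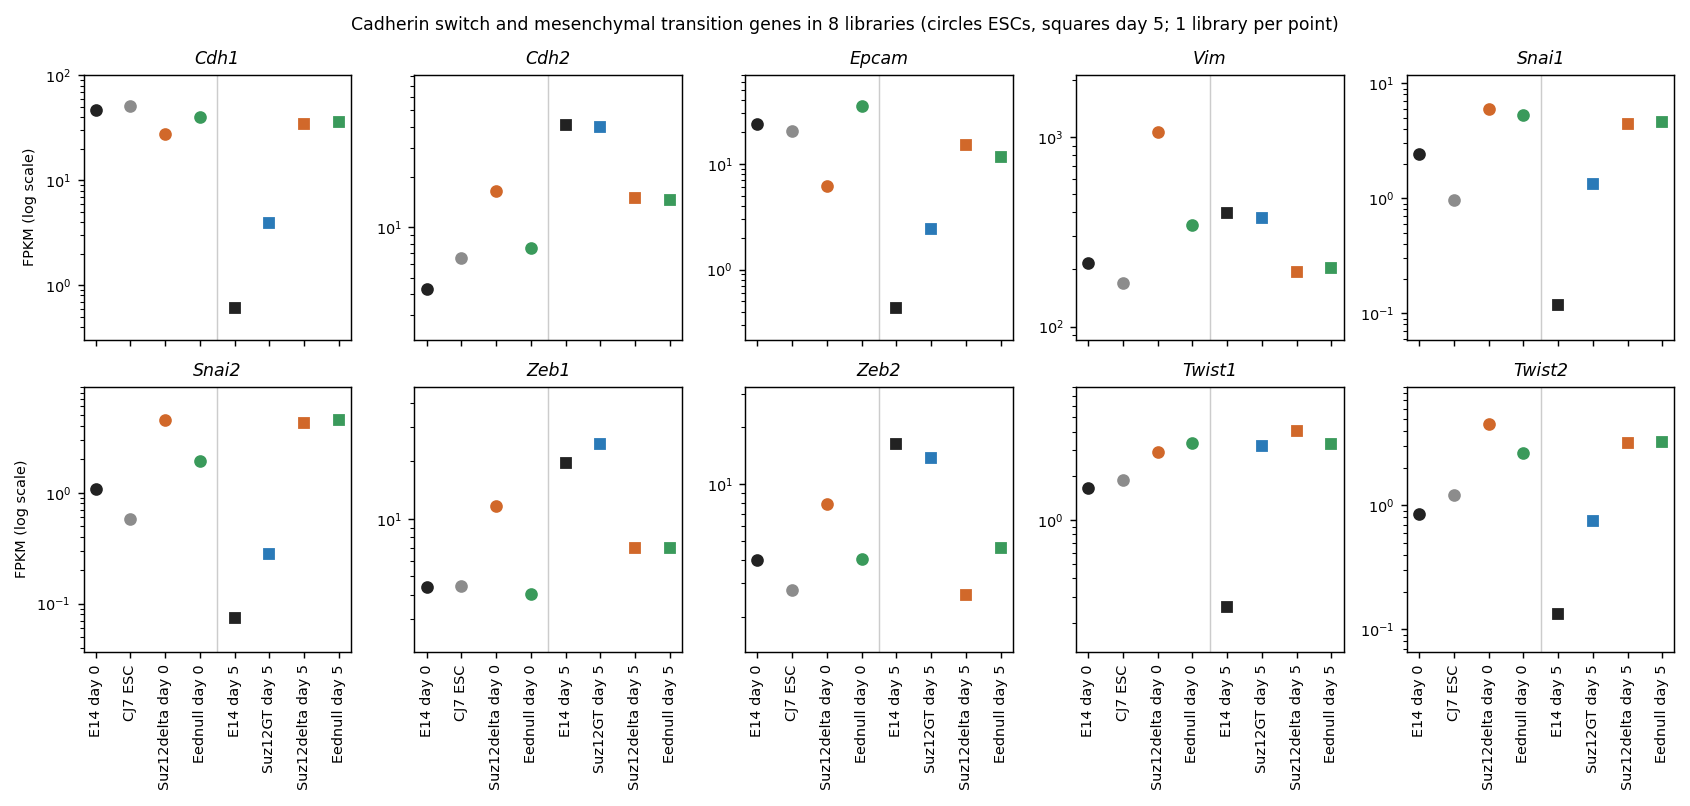
FPKM of the 10 genes on log scales in 8 libraries, with 1 point per library, circles for ESCs and squares for day 5. The E14 day 5 library is the lowest for *Cdh1*, *Epcam*, *Snai1*, *Snai2*, *Twist1* and *Twist2*, and the 2 highest libraries for *Cdh2*, *Zeb1* and *Zeb2* are E14 and Suz12GT at day 5.

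Over differentiation, fewer of the 10 genes changed in the mutant lines than in E14. In Suz12delta cells 1 was higher at day 5, *Epcam*, and 2 were lower, *Vim* and *Zeb2*, where 26.9% and 12.6% of all genes were (39.5% in all). After scaling *Epcam* was no longer past the limit and *Zeb1* was, at -1.10, which gives 0 higher and 3 lower. In Eednull cells *Snai2* was higher (log2 ratio 1.2, and 0.92 with a pseudocount of 1 FPKM) and *Epcam* lower, where 18.4% and 24.8% of all genes were (43.2% in all). The median log2 ratio over the 10 genes was -2.17 in E14, -0.28 in Suz12delta and 0.08 in Eednull cells, beside -0.20, 0.43 and -0.08 over all genes. *Zeb2* was at 7.85 FPKM in Suz12delta ESCs and 2.61 FPKM at day 5, a log2 ratio of -1.55, where in E14 cells it was 2.02.

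Among ESCs, the Suz12delta library differed most from E14. *Vim* was at 1067 FPKM there, against 217 FPKM in E14, 171 FPKM in CJ7 and 344 FPKM in Eednull ESCs, and its log2 ratio to E14 was 2.30. *Zeb1* was at 11.7 FPKM, against 4.39 FPKM in E14, 4.47 FPKM in CJ7 and 4.05 FPKM in Eednull ESCs, and *Zeb2* at 7.85 FPKM, against 3.96, 2.76 and 4.05 FPKM. *Snai1* was at 5.97 FPKM in Suz12delta and 5.28 FPKM in Eednull ESCs, against 2.43 FPKM in E14 and 0.957 FPKM in CJ7. *Snai2* was at 4.53 FPKM in Suz12delta and 1.91 FPKM in Eednull ESCs, against 1.09 and 0.585 FPKM in the wild-type lines. *Twist1* was at 2.90 FPKM in Suz12delta and 3.33 FPKM in Eednull ESCs, against 1.66 FPKM in E14 and 1.88 FPKM in CJ7. *Twist2* was at 4.52 and 2.65 FPKM in the mutant lines, against 0.851 and 1.22 FPKM. For the Snail and Twist genes, both mutant ESC values thus lay above both wild-type ESC values. In Suz12delta ESCs 6 of the 10 genes were higher than in E14 ESCs and 1, *Epcam*, was lower, against 18% and 22.8% of all genes (40.8% in all). After scaling *Zeb2* (0.97, scaled 1.33) and *Twist1* (0.77, scaled 1.13) were also past the limit. In Eednull ESCs 2 were higher, *Snai1* (log2 ratio 1.09) and *Twist2* (1.53), which a pseudocount of 1 FPKM brought to 0.87 and 0.98, and 0 lower, against 22.4% and 11.9% (34.3% in all), and after scaling *Twist1* was too (0.97, scaled 1.12).

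The labels state that CJ7 was prepared and sequenced with a library whose code, in the table's header, is that of Eednull ESCs. Relative to CJ7, Eednull ESCs had 4 higher genes, *Snai1*, *Snai2*, *Twist2* and *Vim*, with log2 ratios of 2.35, 1.56, 1.06 and 1.01, where 20.5% of all genes were higher (31.2% in either direction). Relative to CJ7, Suz12delta ESCs had 7 higher genes and 1 lower, against 21.1% and 24% of all genes (45.1% in all). Strain differs between each mutant line and both wild-type lines, apart from Suz12GT and E14, and cannot be told apart from genotype.

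Fibroblasts express *Vim*, *Cdh2* and the Snail, Twist and ZEB genes. Among ESCs, fibroblast markers summed highest in Suz12delta cells, where these genes apart from *Twist1* were also highest. In Eednull ESCs *Vim*, *Cdh2* and the Snail and Twist genes lay above their E14 values, and *Zeb1* and *Zeb2* lay near theirs. In CJ7 ESCs *Vim*, *Snai1*, *Snai2* and *Zeb2* lay below their E14 values, and *Cdh2*, *Zeb1*, *Twist1* and *Twist2* lay above. The 12 markers, among them *Col1a1*, *Col1a2* and *Thy1*, summed to 603 FPKM in Suz12delta and 294 FPKM in Eednull ESCs, against 109 FPKM in E14 and 129 FPKM in CJ7. All 12 were higher in Suz12delta than in E14 ESCs, where 18% of all genes were. In Eednull ESCs 4 of 12 were higher, where 22.4% of all genes were, and *Col1a1* and *Col1a2*, at 104 and 96.5 FPKM, made up most of the sum. Relative to CJ7, 4 were higher in Eednull ESCs and 2 lower, *Lum* (-1.88) and *Dcn* (-1.02), named after their values were seen. None was at 0 in an ESC library. Their part in the ESC values of the 10 genes was not tested. In RNA from a mixed culture, a change in the number of cells of a type and a change in RNA per cell cannot be told apart. At day 5 the markers summed to 7.01 FPKM in E14, with *Fap* and *Lum* listed at 0, where *Vim* was at 399 FPKM, and to 24.0 FPKM in Suz12GT, 143 FPKM in Suz12delta and 74.9 FPKM in Eednull cells. When day 5 cells were set against E14, 10 of the 11 tested were higher in Suz12GT cells (median log2 ratio 1.83). All 12 were higher in Suz12delta and 11 of 12 in Eednull cells. The shares of all genes higher in these comparisons were 16.8%, 26.6% and 21.6%. The part of fibroblasts in the day 5 values of the Snail and Twist genes was not tested either.

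**Figure D3:**
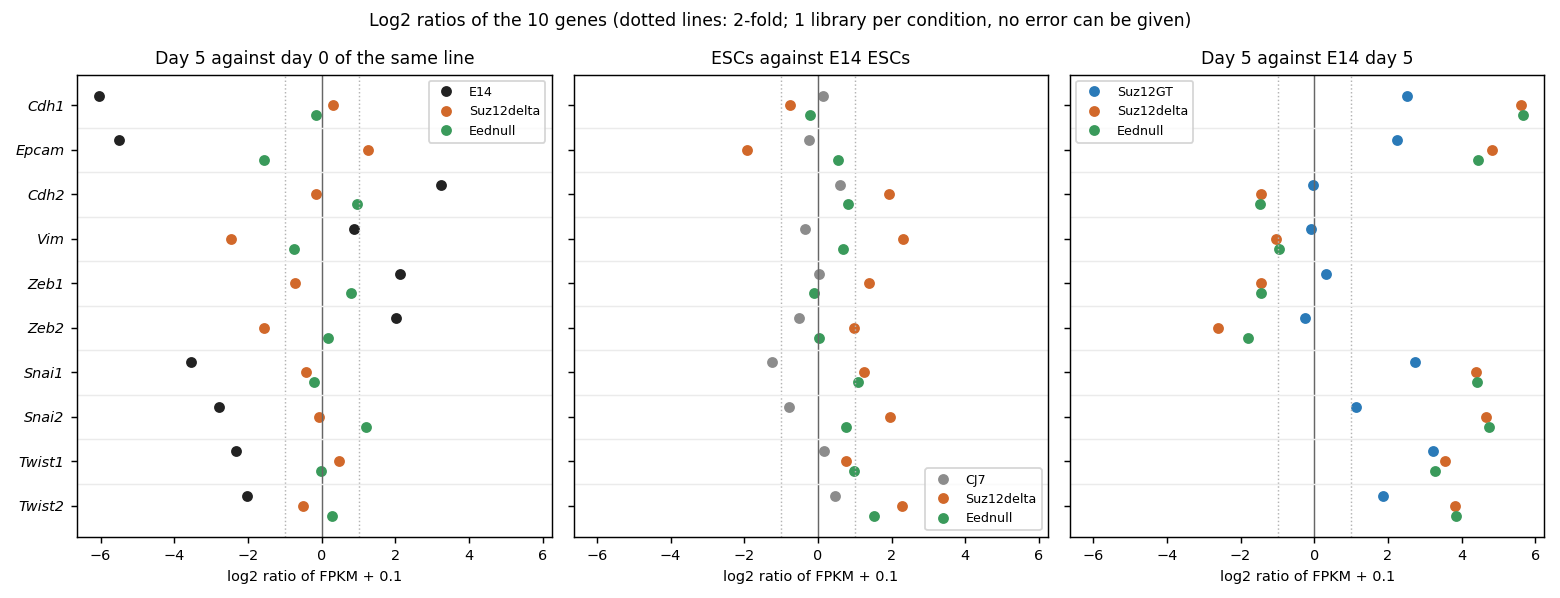
Log2 ratios of FPKM plus 0.1 (x axis) for the 10 genes, between day 5 and day 0 of a line (left), between ESCs and E14 ESCs (middle) and between day 5 cells and E14 day 5 cells (right), each point from 1 pair of libraries; dotted lines mark 2-fold. E14 has -6.05 for *Cdh1* and 3.23 for *Cdh2* on the left, where Suz12delta and Eednull lie between -0.17 and 0.95 for these genes.

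The wider epithelial program was lower in E14 cells at day 5, as *Cdh1* was, and higher in the mutant day 5 libraries than in E14. Of 29 genes of epithelial junctions and polarity, 0 were higher and 23 lower in E14 cells at day 5 than at day 0. Their median log2 ratio was -2.80, beside -0.20 for all genes. Relative to E14 at day 5, 19 of the 29 were higher in Suz12GT, 27 in Suz12delta and 26 in Eednull cells, and 0 were lower in any of these. The shares of all genes were 16.8%, 26.6% and 21.6% higher and 4.4%, 9.52% and 11.3% lower. The list medians were 1.53, 4.74 and 4.51, beside 0.13, 0.26 and 0.08 for all genes. *St14*, a membrane protease of epithelia, was at 17.7 FPKM in E14 ESCs and 0.130 FPKM at day 5, against 1.55 FPKM in Suz12GT, 23.4 FPKM in Suz12delta and 26.6 FPKM in Eednull day 5 cells. *Cldn7*, a tight junction claudin, was at 0.311 FPKM in E14 day 5 cells, 2.29 FPKM in Suz12GT, 60.6 FPKM in Suz12delta and 79.1 FPKM in Eednull cells. The last value is 1.48 above that of Eednull ESCs on the log2 scale. *Krt19*, a keratin of simple epithelia, was at 0.490 FPKM in E14, 8.67 FPKM in Suz12GT, 61.9 FPKM in Suz12delta and 68.9 FPKM in Eednull day 5 cells. The list was also higher at day 5 than in ESCs of the same line for 17 of 29 genes in Suz12delta cells and 13 of 29 in Eednull cells, with 0 and 1 lower, where 26.9% and 18.4% of all genes were higher. The medians of the list were 1.19 and 0.93, beside 0.43 and -0.08 for all genes. *Cdh1* itself had log2 ratios of 0.32 and -0.17 over the same days in these lines.

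Of 10 regulators of the epithelial state, all were lower in E14 at day 5 than at day 0, where 25.8% of all genes were. Relative to E14 at day 5, all 10 were higher in Suz12delta and Eednull cells and 7 of the 9 tested in Suz12GT cells. The shares of all genes higher were 26.6%, 21.6% and 16.8% in this order. The list medians were -3.74 in E14 over differentiation, 4.98 in Suz12delta and 5.15 in Eednull cells, beside -0.20, 0.26 and 0.08 for all genes. *Esrp1*, which encodes an epithelial splicing factor, was at 17.2 FPKM in E14 ESCs, 0.0760 FPKM in E14, 0.602 FPKM in Suz12GT, 10.2 FPKM in Suz12delta and 6.88 FPKM in Eednull day 5 cells. *Grhl2*, a transcription factor that activates *Cdh1*, was at 6.27 FPKM in E14 ESCs and at 0.0478, 0.326, 4.76 and 6.96 FPKM in the same day 5 libraries. *Klf4* behaved differently. It was at 72.5 FPKM in E14, 26.5 FPKM in Suz12delta and 29.6 FPKM in Eednull ESCs, was listed at 0 in E14 day 5 cells, and was at 2.92 and 3.21 FPKM at day 5 in the mutant lines, lower than in their ESCs by log2 ratios of -3.14 and -3.16.

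Markers of several other cell types also differed between the day 5 libraries, not all in the order of *Cdh1* and *Epcam*. The 9 pluripotent cell markers found, *Pou5f1* and *Nanog* among them, summed to 1172 FPKM in E14, 509 FPKM in Suz12delta and 986 FPKM in Eednull ESCs, and to 6.54, 27.7 and 15.0 FPKM at day 5, with 16.5 FPKM in Suz12GT cells. From day 0 to day 5, all 9 were lower in E14 and Eednull cells and 8 in Suz12delta cells, where 25.8%, 24.8% and 12.6% of all genes were. Against the E14 day 5 library, however, 7 of 8 tested were higher in Suz12GT (median log2 ratio 2.29) and 8 of 9 in Suz12delta cells (2.85). In Eednull cells 4 of 7 were higher (1.08), and 0 were lower in any of these lines. For this and the following lists, the shares of all genes were 16.8%, 26.6% and 21.6% higher in Suz12GT, Suz12delta and Eednull cells. The shares lower were 4.4%, 9.52% and 11.3%. In Eednull day 5 cells *Pou5f1* (0.340 FPKM) and *Nanog* (0 FPKM) were near their E14 day 5 values of 0.302 and 0 FPKM. Markers of endoderm and extraembryonic epithelium, tissues that express *Cdh1* and *Epcam*, were measured in 14 rows, which summed to 5.59 FPKM in E14, 43.1 FPKM in Suz12GT, 100.1 FPKM in Suz12delta and 104.5 FPKM in Eednull day 5 cells. All 12 tested were higher in Suz12GT and all 13 tested in Suz12delta and Eednull than in E14 cells, and 1 row, a second *Dab2* entry, was listed at 0 in all libraries. Markers of neural progenitors and neurons moved the other way in the 2 null lines, with 10 of 11 lower in Suz12delta and 11 of 11 lower in Eednull than in E14 day 5 cells, and 3 lower and 1 higher in Suz12GT cells. *Tubb3*, a neuronal tubulin on this list, was listed at 0 in all 8 libraries. Of the neural crest markers, 1 of 3 tested was higher in Suz12GT, 2 of 6 in Suz12delta and 1 of 4 in Eednull than in E14 day 5 cells, and 0, 2 and 2 were lower, where 16.8%, 26.6% and 21.6% of all genes were higher. Of the mesoderm markers, 3 of 5 were higher in Suz12GT, 6 of 7 in Suz12delta and 6 of 7 in Eednull cells, and 0 were lower in these comparisons. The part of these cell types in the values of the 10 genes was not tested.

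**Figure D4:**
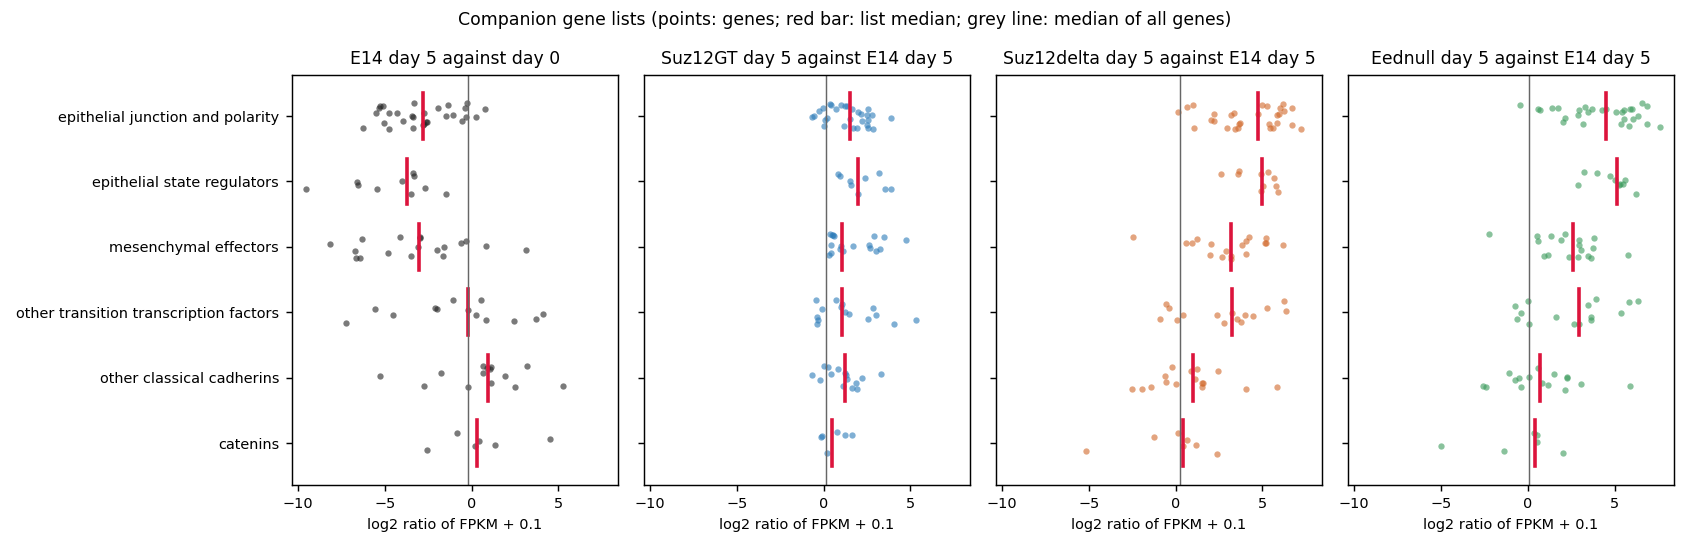
Log2 ratios of FPKM plus 0.1 (x axis) for the genes of 6 lists (y axis), with 1 point per gene, in E14 cells from day 0 to day 5 and in each mutant line relative to E14 at day 5; red bars are list medians and the grey line is the median of all genes. The epithelial lists have medians of -2.80 and -3.74 in the first comparison and 4.74 and 4.98 in Suz12delta cells.

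Among 18 mesenchymal effector genes, which encode matrix, contractile and cell surface proteins, the wild-type direction was opposite to that of *Cdh2*. In E14 cells 14 were lower and 1 higher at day 5 than at day 0, with -3.03 as the median log2 ratio. The single higher gene was *Ncam1*, a neural cell adhesion molecule, at 5.79 FPKM in ESCs and 51.7 FPKM at day 5, named after its values were seen. Relative to E14 at day 5, 9 were higher in Suz12GT, 15 in Suz12delta and 14 in Eednull cells, and 0, 1 and 1 were lower. Of all genes, 16.8%, 26.6% and 21.6% were higher in these comparisons and 4.4%, 9.52% and 11.3% lower. The part of fibroblasts in the values of this list was not tested. *Sparc*, a matrix glycoprotein, was at 18.8 FPKM in E14, 181 FPKM in Suz12GT, 173 FPKM in Suz12delta and 144 FPKM in Eednull day 5 cells. *Lox*, a collagen cross-linking enzyme, was at 0.0795 FPKM in E14, 1.03 FPKM in Suz12GT, 6.54 FPKM in Suz12delta and 2.40 FPKM in Eednull day 5 cells, and at 60.3 FPKM in Suz12delta and 58.1 FPKM in Eednull ESCs. The mutant day 5 libraries thus held epithelial and mesenchymal genes above wild type at once, and bulk RNA does not show whether these were in the same cells.

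Other transcription factors of the transition gave mixed results in wild-type cells, with 3 of 13 rows tested higher and 6 lower. Of all genes, 18.3% were higher and 25.8% lower. The 3 higher rows were *Sox9* and both entries of *Sox4*. Of 15 rows tested, 8 were higher in Suz12GT and 10 each in Suz12delta and Eednull than in E14 day 5 cells, and 0 were lower. In these comparisons 16.8%, 26.6% and 21.6% of all genes were higher. *Tbx3*, a T-box repressor, was at 27.0 FPKM in E14 ESCs and 0.0815 FPKM at day 5, against 7.13, 14.5 and 10.4 FPKM in Suz12GT, Suz12delta and Eednull day 5 cells. *Prrx1*, a homeobox gene of mesenchyme, was listed at 0 in E14 day 5 cells and was at 0.487, 3.69 and 4.10 FPKM in these libraries. *Snai3* and *Foxc2* were listed at 0 in all 8 libraries. Of the ligands and receptors, 10 of 14 were lower and 1 higher in E14 at day 5 than at day 0. Relative to E14 at day 5, 9 of 13 were higher in Suz12GT, 12 of 14 in Suz12delta and 11 of 13 in Eednull cells. The shares of all genes are those given above for the same comparisons. *Pdgfra*, a growth factor receptor of mesenchyme, was at 0.135 FPKM in E14, 2.23 FPKM in Suz12GT, 11.7 FPKM in Suz12delta and 10.98 FPKM in Eednull day 5 cells.

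Other classical cadherins followed several patterns. *Cdh3*, which encodes P-cadherin, resembled *Cdh1*, with 9.61 FPKM in E14 ESCs and 0.149, 0.529, 14.2 and 14.4 FPKM in E14, Suz12GT, Suz12delta and Eednull day 5 cells. *Cdh22* resembled the neural genes, with 2.19 and 8.31 FPKM in E14 and Suz12GT and 0.301 and 0.291 FPKM in Suz12delta and Eednull day 5 cells. *Cdh6* was high at day 5 in every line, at 7.82, 16.8, 6.71 and 8.23 FPKM in the same order, and at 0.105 FPKM in E14 ESCs. Of 14 tested in E14 cells, 7 were higher and 3 lower at day 5, where 18.3% and 25.8% of all genes were. Among catenins, *Ctnna2*, the neural alpha-catenin, was at 0.470 FPKM in E14 ESCs and 13.002 FPKM at day 5. It was at 30.5 FPKM in Suz12GT, 0.268 FPKM in Suz12delta and 0.320 FPKM in Eednull day 5 cells, with log2 ratios to E14 of 1.22, -5.15 and -4.96. *Jup*, or plakoglobin, of desmosomes and adherens junctions, was at 38.7 FPKM in E14 ESCs and at 6.33, 19.8, 32.8 and 26.7 FPKM in these day 5 libraries.

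To find genes with the profile of a member, each log2 profile over the 8 libraries was centred on its mean and compared by root mean square difference across 18538 genes that reach 1 FPKM in at least 1 library. The 5 closest to *Cdh1* were *Tnk1*, *Dapp1*, *Bcl3*, *Esrp1* and *Prrg4*, at differences from 0.40 to 0.44 log2 units. *Bcl3*, a regulator of NF-kB, was at 10.98 FPKM in E14 ESCs and at 0.292, 1.39, 8.32 and 7.58 FPKM in E14, Suz12GT, Suz12delta and Eednull day 5 cells. Closest to *Cdh2* were *Suox*, *Fam131a*, *Mid2*, *Fam18a* and *Gamt*, at 0.19 to 0.29. *Suox*, which encodes sulfite oxidase, was at 1.62 FPKM in E14 ESCs and at 15.8, 16.4, 4.46 and 5.15 FPKM in these day 5 libraries. Closest to *Vim* were *Pcdh19*, *Gm11438*, *Akap2*, *Gm7094* and *Tpi1*, at 0.20 to 0.33. *Pcdh19*, a protocadherin, was at 1.53 FPKM in E14 and 7.91 FPKM in Suz12delta ESCs and at 2.16, 2.44, 1.15 and 1.23 FPKM at day 5. All 15 likenesses rest on the same 8 libraries.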

How the data were processed

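RNA-seq was measured in 8 mouse libraries. The authors aligned reads with TopHat 1.3.2 and Bowtie 0.12.7 to NCBI build 37 and deposited FPKM values per gene, estimated with Cufflinks 1.2.1 and Cuffdiff under an Ensembl-based annotation with correction for sequence bias and for reads that map to several places. Columns were assigned from their names and the sample labels. Steps worth a single read were not seen among low values (the commonest ratio between libraries was held by 1.04% of low genes or fewer), so depth is unknown and no interval is given. A listed 0 can be a failed estimate: each library has 0 to 5 genes at 0 that reach at least 10 FPKM in all others.

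Log2 ratios used a pseudocount of 0.1 FPKM, which understates changes of low genes, and a minimum of 0.1 FPKM in either library. Differences of at least 2-fold were called, and the share of all genes called was the background. The calling step was run on simulated data with planted 4-fold changes, which checks the code and not the rate of false calls in these libraries. Members and the 13 companion lists (172 of 178 genes found) were chosen with earlier results of these data known. Companion genes named are the 4 with the largest change over E14 differentiation and those at least 4-fold higher in all 3 mutant day 5 libraries, at 1 FPKM or more, of which some are shown, and for *Cdh1*, *Cdh2* and *Vim* the 5 nearest profiles. GENCODE vM1 gave the gene coordinates (NCBI build 37). Alternatives were pseudocounts of 1 and 0.01 FPKM, a minimum of 1 FPKM or none, scaling to the 75th percentile, a 4-fold limit and CJ7 as wild-type ESC. The software was pandas 2.3.3 and NumPy 2.4.6 under Python 3.11.15, with matplotlib 3.10.9 for plots.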

Additional observations from a re-analysis of the deposited data

Results flagged for a closer look

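Between day 0 and day 5, *Epcam*, *Snai2* and *Zeb2* moved past 2-fold in opposite directions in different lines, with 1 library per line and day, so the differences between lines were not tested. The log2 ratio of *Epcam* was -5.50 in E14, 1.25 in Suz12delta and -1.58 in Eednull cells, and in Suz12delta cells it was 0.87, under the 2-fold limit, after scaling to the 75th percentile. That of *Snai2* was -2.78 in E14, -0.0771 in Suz12delta and 1.199 in Eednull cells. With a pseudocount of 1 FPKM it was -0.96 in E14 and 0.92 in Eednull cells, both under the 2-fold limit. For *Zeb2* the log2 ratio was 2.02 in E14, -1.55 in Suz12delta and 0.18 in Eednull cells. The Suz12delta ESC library, which enters 2 of the opposite ratios, had the highest fibroblast marker sum of the 8 libraries, 603 FPKM, whose part in these ratios was not tested.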

How the results depend on the processing

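No called log2 ratio of a member changed sign under an alternative. With a pseudocount of 1 FPKM the shift of the *Cdh1* to *Cdh2* balance was -7.88 in E14 cells over differentiation, and relative to E14 at day 5 it was 1.67 in Suz12GT, 5.86 in Suz12delta and 5.94 in Eednull cells. The same pseudocount left 1 member past the 2-fold limit in Eednull cells over differentiation and 0 in CJ7 and in Eednull ESCs relative to E14. A 4-fold limit left 1 in Suz12delta and 0 in Eednull cells over differentiation, and 0 in CJ7, 2 in Suz12delta and 0 in Eednull ESCs relative to E14. With CJ7 as the wild-type ESC, Eednull ESCs had 4 in place of 2. With a pseudocount of 1 FPKM the calls lost were those on the low Snail and Twist genes. In this setting the number past the limit also went from 9 to 7 in E14 cells over differentiation and from 6 to 4 in Suz12GT cells at day 5, without *Snai2* and *Twist2* in both. Other counts stayed within 1.5 times and other balance shifts within 1.5-fold of the value reported. No paired analysis was possible because each condition had 1 library, and none could be left out. FPKM without read counts gives no limit of detection, so low values such as those of the Snail and Twist genes have no known counting error.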
